A study of Mus musculus with 6 samples.

Results

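The G2 and mitosis genes described here are 37 genes whose products act between the end of DNA replication and the separation of daughter cells. Their mRNA was measured in activated CD8 T cells on the Affymetrix Mouse Genome 430 2.0 array. All probe sets that the array annotation assigns to exactly 1 gene, that gene being on the list, were taken. This rule uses no measured value, while the list itself was drawn up with earlier results of these data known. This gave 78 probe sets for 36 of the 37 genes, among 34945 such probe sets for 18193 genes in all. The gene without values is Ccnb1 (cyclin B1), which had no probe set assigned to it alone in the annotation used here. Where a gene had several probe sets, as all but 11 did, the brightest stands for it.

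All cells came from C57BL/6 mice of 8 to 12 weeks that carried the P14 LCMV T cell receptor transgene, which recognises a peptide of lymphocytic choriomeningitis virus. Splenocytes of both groups received this peptide for 48 hours, were transduced with retrovirus at 18 hours, and were then grown in IL-2 for another 48 hours by the labels, although a legend of the study gives a longer time. The control virus encoded GFP alone (evGFP, or GFPpos cells), and the other encoded GFP fused to KLF2 (GFP-KLF2pos cells). Each group had 3 arrays, labelled as biological replicates 1 to 3, of RNA from sorted GFP-positive cells, labelled as culture day 4. The sources used here do not say how many mice went into a culture. Expression from a retroviral promoter differs from that of the Klf2 locus, so this is a model of maintained KLF2 and not of the naive state. The comparison asks how T cells given KLF2 from the virus differed from T cells given GFP alone.

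KLF2 is a zinc finger transcription factor of naive T cells whose expression falls within hours when the antigen receptor is triggered. Entry into mitosis is driven by the kinase CDK1 with B-type cyclins, which CDC25 phosphatases activate, and exit is driven by the anaphase-promoting complex with its activator CDC20. The spindle checkpoint kinases hold CDC20 back until each chromosome is attached to the spindle. Genes of this group are transcribed late in the cell cycle, largely through promoters in which CCAAT boxes, read by the factor NF-Y, precede an element called CHR, read by the MuvB complex. MuvB works with B-MYB and FOXM1 in dividing cells and with the DREAM repressor in resting cells. In RNA from whole populations, fewer cells in G2 or mitosis and less mRNA per cell cannot be told apart.

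Promoter letters were read from RefSeq sequence of the GRCm38.p6 build, in windows from 250 bases before to 50 bases after each annotated start. Of the 37 genes, 31 had a window, while Kif20a, Tpx2, Dlgap5, Ccna2, Cdc25c and Aurkb had none in the table used. The windows below run over 140 bases and are chosen examples. Cdc25b and Cdc20 passed the test, and Ttk changed its call with the replicate block. Ube2c and Bub1 act with Cdc20, and Cdk1 and Ccnb2 form the central kinase, but these did not pass with or without the block. Bub1b, which also changed its call, is not shown, and its CHR letters lie outside such a 140-base stretch. All windows shown hold both CHR and CCAAT letters, which is not so for all 31. Each is written on the strand of its gene. Capitals mark CHR letters (TTTGAA or TTCGAA, with TTCAAA as the other strand of the former) and CCAAT boxes (CCAAT, or ATTGG on the other strand). The locations are chr2:131186828-131186967 on the plus strand for Cdc25b, chr4:118437324-118437463 on the minus strand for Cdc20, chr9:83834569-83834708 on the plus strand for Ttk and chr2:164769809-164769948 on the plus strand for Ube2c. Those of Bub1, Cdk1 and Ccnb2 are chr2:127831840-127831979, chr10:69352893-69353032 and chr9:70421535-70421674, all on the minus strand.
Cdc25b: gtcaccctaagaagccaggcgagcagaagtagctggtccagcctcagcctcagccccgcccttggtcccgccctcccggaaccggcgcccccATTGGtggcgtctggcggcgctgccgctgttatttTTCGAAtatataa
Cdc20: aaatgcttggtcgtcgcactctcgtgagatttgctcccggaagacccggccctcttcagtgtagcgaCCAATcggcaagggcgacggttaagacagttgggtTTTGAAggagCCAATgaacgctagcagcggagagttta
Ttk: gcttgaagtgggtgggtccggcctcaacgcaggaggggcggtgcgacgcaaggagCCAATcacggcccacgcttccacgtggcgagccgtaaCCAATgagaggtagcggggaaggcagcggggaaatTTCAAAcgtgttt
Ube2c: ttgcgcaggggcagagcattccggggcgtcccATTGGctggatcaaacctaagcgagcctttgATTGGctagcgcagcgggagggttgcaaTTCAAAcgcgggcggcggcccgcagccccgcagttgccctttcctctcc
Bub1: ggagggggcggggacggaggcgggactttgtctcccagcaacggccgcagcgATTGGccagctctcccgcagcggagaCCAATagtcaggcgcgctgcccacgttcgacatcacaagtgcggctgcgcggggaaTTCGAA
Cdk1: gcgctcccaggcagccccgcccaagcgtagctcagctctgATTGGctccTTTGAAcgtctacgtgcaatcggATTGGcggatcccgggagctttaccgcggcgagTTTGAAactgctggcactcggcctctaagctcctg
Ccnb2: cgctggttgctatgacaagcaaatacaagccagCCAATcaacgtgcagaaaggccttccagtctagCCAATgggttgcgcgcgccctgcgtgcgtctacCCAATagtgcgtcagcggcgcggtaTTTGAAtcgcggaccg

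CHR letters stood in 24 of the 31 windows (77.4%), against 19.2% of all 32851 windows in the table and 15.1% of the 18109 windows of genes measured on the array. The 7 windows without them belonged to Ccnb1, Cks2, Cenpe, Nuf2, Birc5, Nusap1 and Tacc3. CCAAT boxes also stood in 24 windows (77.4%), against 37.4% of all windows, and 21 windows (67.7%) held both, against 7.52%. Of the 32 CHR matches, 21 began between 30 bases before and 45 bases after the annotated start, and of the 61 CCAAT matches, 42 began within the last 120 bases before it. CACCC, the core letters of the sites that KLF factors read, stood in 16 windows (51.6%), against 57.5% of all windows. The Cdc25b and Cdc20 windows, whose genes moved in opposite directions, both held CHR and CCAAT letters. These matches describe the sequence and show no binding.

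**Figure D1:**
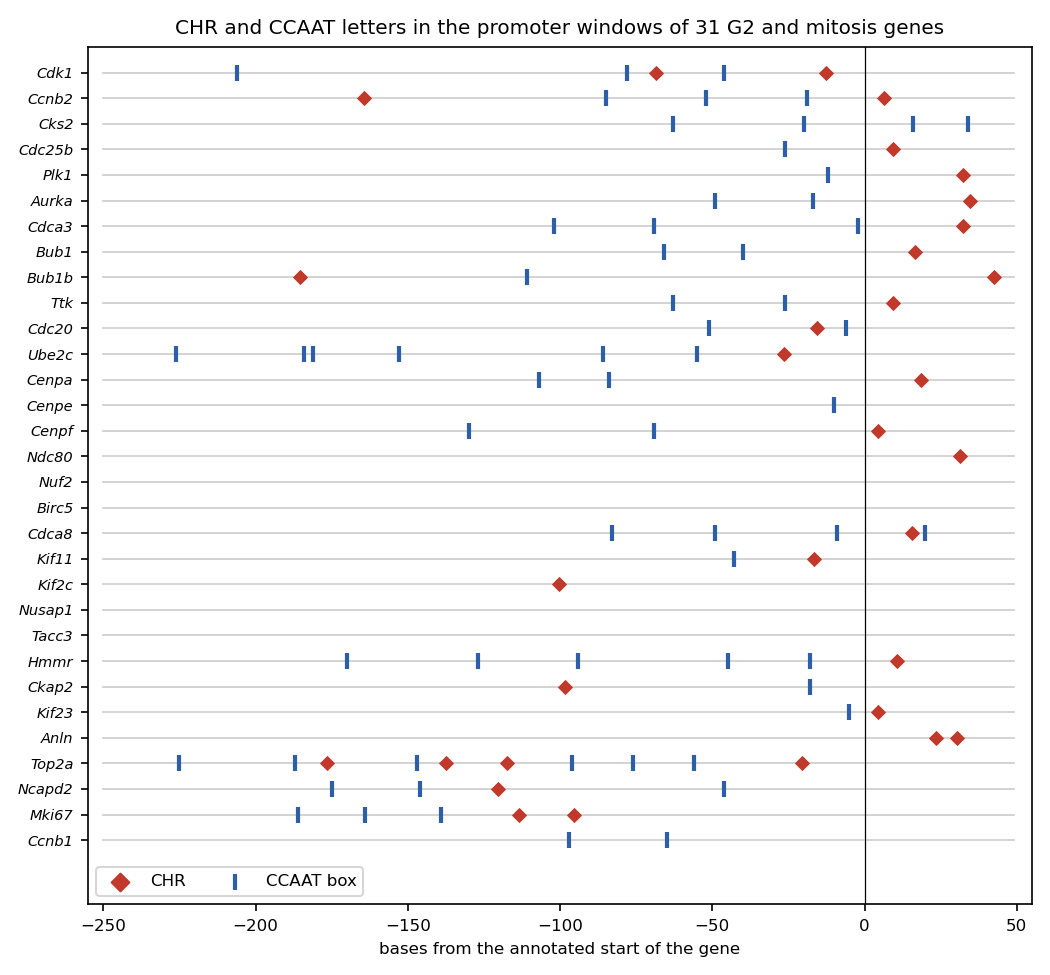
Positions of CHR letters (diamonds) and CCAAT boxes (bars) in the promoter windows of 31 G2 and mitosis genes, 1 line per gene. The horizontal axis gives bases from the annotated start of the gene, which is marked by a vertical line, and most CCAAT boxes lie to its left while most CHR letters lie close to it.

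The arrays correlated at 0.9931 to 0.9961 within a group and 0.9823 to 0.9897 between groups (Pearson's r over 45037 probe sets on the log2 scale). The Klf2 probe set gave 10.99, 10.37 and 8.80 in evGFP and 9.83, 9.67 and 8.74 in GFP-KLF2 arrays (log2 intensity, adjusted p by limma = 0.552). It reads sequence that the construct lacks and so checks no label. Over all genes, 1519 fell (8.35%) and 1131 rose (6.22%), 14.6% in all, at an adjusted p under 0.046 by limma. Calls were thus 42.7% rises, a share that cyclic loess scaling moved to 59.1% (961 falls, 1388 rises). The 3′ minus 5′ signal of the Actb control was 0.11 to 0.12 in evGFP and 0.08 in GFP-KLF2 arrays (log2 units). That of the Gapdh control was -0.18 to -0.12 and -0.17 to -0.14, with overlap. The part of these signals in the results below was not tested. All values below are log2 intensities of one probe set or differences between them, and levels of different genes are not comparable on this scale.

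Most G2 and mitosis genes differed little between GFPpos and GFP-KLF2pos cells. Of 36 genes, 1 fell (Cdc20), 1 rose (Cdc25b) and 34 did not pass the test, so that 5.56% passed against 14.6% of all genes. All 36 were well expressed, with means of 8.07 to 13.09. Among the 6956 genes with a mean of at least 8, 16.3% fell and 11.1% rose. The median difference, GFP-KLF2 minus evGFP, was -0.18, against -0.01 over all genes and -0.08 over genes with a mean of at least 8. At an uncorrected p under 0.05, 8 genes were lower, Cdc20, Bub1b, Ttk, Ccna2, Ube2c, Aurkb, Cks2 and Plk1, and 1 was higher. These are 22.2% lower, against 17.7% lower and 12.0% higher of all genes and 32.1% lower and 18.6% higher of genes with a mean of at least 8.

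The intervals of the fit without the replicate block bound what the arrays could have missed. For 35 of the 36 genes the 95% confidence interval lay within a 2-fold change either way, and for 26 it lay within 1.5-fold (0.58 on the log2 scale). No interval reached a 2-fold fall, the lowest limit being -0.89 for Bub1b. Standard errors ran from 0.07 to 0.18. The 34 genes that did not pass had differences from -0.55 to 0.25.

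Although few genes passed, differences below 0 outnumbered those above it by 30 to 6. Over all genes these counts were 9392 and 8801, and over genes with a mean of at least 8 they were 4191 and 2765. The median of the G2 and mitosis genes was below 0 under each scaling tried. Cyclic loess brought it to -0.09 and turned 7 of these genes from below to above 0. In 14 genes (38.9%) all 3 GFP-KLF2 arrays lay below all 3 evGFP arrays, against 20.6% of all genes and 2574 of the 6956 genes with a mean of at least 8, and in 1 they lay above, against 14.3% of all genes. The other 21 overlapped. Arrays with the same replicate number deviated alike, and with that number as a block in the fit 4 genes fell, namely Cdc20, Bub1b, Ttk and Aurkb, and Cdc25b rose, against 12.1% and 8.58% of all genes. Leaving out any 1 of the 6 arrays gave 0 falls, except that leaving out GFP-KLF2 replicate 3 gave 2, Bub1b and Ttk. Fits with fewer arrays lower such counts by construction, and falls over all genes then went from 1519 to between 591 and 1132. These counts therefore do not show how far the single fall rested on any array.

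**Figure D2:**
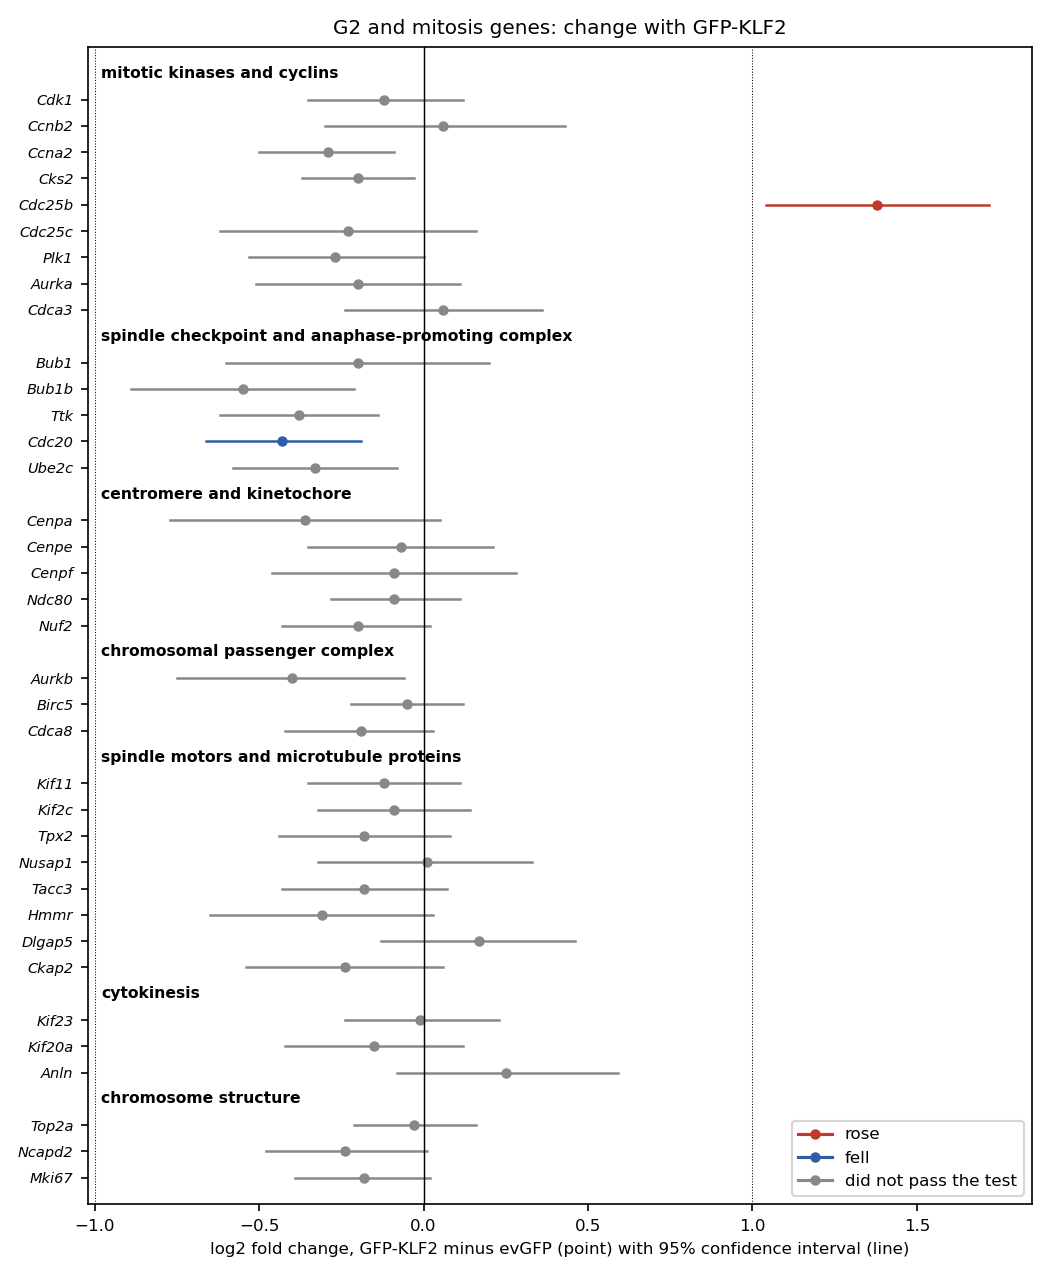
Difference in log2 intensity, GFP-KLF2 minus evGFP (points), with its 95% confidence interval (lines), for 36 G2 and mitosis genes grouped by role. Dotted lines mark 2-fold changes, and all genes other than Cdc25b, at 1.38, lie between -0.55 and 0.25.

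The mitotic kinases, cyclins and their regulators comprise 9 measured genes, of which 1 rose, 0 fell and 8 did not pass. Cdc25b encodes a phosphatase that removes inhibitory phosphates from cyclin-dependent kinases and starts the activation of CDK1. Its levels were 9.62, 10.08 and 10.15 in evGFP and 11.39, 11.21 and 11.39 in GFP-KLF2 arrays. All GFP-KLF2 arrays lay well above all evGFP arrays, and the lowest level was that of evGFP replicate 1. The means were 9.95 ± 0.29 and 11.33 ± 0.10 (SD, n = 3), a difference of 1.38 (SE 0.15, 95% interval 1.04 to 1.72, adjusted p by limma = 0.00226), or 2.61-fold. The differences by replicate number were 1.77, 1.13 and 1.24. The rise passed whichever array was left out, at 1.22 to 1.48 with adjusted p of 0.00386 to 0.013. Cdc25b has 1 probe set on the list, so no second probe set bears on it.

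Cdc25c, the related phosphatase that CDK1 itself activates, had levels of 8.08, 8.10 and 8.39 in evGFP and 8.10, 7.59 and 8.18 in GFP-KLF2 arrays. The groups overlapped, and the difference was -0.23 (SE 0.17, 95% interval -0.62 to 0.16, adjusted p by limma = 0.474). Its second probe set gave -0.24. The interval of Cdc25c lay wholly below that of Cdc25b.

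Cdk1, the kinase of mitotic entry, had 11.91, 11.90 and 12.02 in evGFP and 11.87, 11.64 and 11.96 in GFP-KLF2 arrays, a difference of -0.12 (95% interval -0.35 to 0.12). Ccnb2, a B-type cyclin partner of CDK1, had 11.53, 11.45 and 11.83 against 11.80, 11.35 and 11.84, a difference of 0.06 (95% interval -0.30 to 0.43). The groups overlapped for both, and in both GFP-KLF2 replicate 2 was the lowest array. For Ccna2, cyclin A2 of S phase and G2, the evGFP arrays were tightly spaced at 12.17, 12.15 and 12.16, and the GFP-KLF2 arrays lay below them at 11.88, 11.73 and 12.00. Its difference of -0.29 (SE 0.09, adjusted p by limma = 0.0791) did not pass.

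Cks2, a small subunit of CDK complexes, had 12.84, 12.78 and 12.75 in evGFP and 12.63, 12.54 and 12.59 in GFP-KLF2 arrays. The groups did not overlap, yet the difference of -0.20 (adjusted p by limma = 0.137) did not pass. Plk1, the polo kinase that promotes mitotic entry and spindle assembly, was the third of these genes whose GFP-KLF2 arrays all lay lower, with a difference of -0.27 (adjusted p = 0.194 by limma). The centrosomal kinase gene Aurka differed by -0.20 and Cdca3, whose product promotes mitotic entry through turnover of the kinase WEE1, by 0.06, and the groups overlapped for both.

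The spindle checkpoint and its target, the anaphase-promoting complex, gave the lowest median of the 7 roles, -0.38 over 5 genes. Of these, 1 fell, and with the replicate block 3 did. Cdc20, which activates the anaphase-promoting complex to destroy securin and cyclin B, had 12.66, 12.68 and 12.61 in evGFP and 12.36, 12.02 and 12.29 in GFP-KLF2 arrays. The evGFP arrays lay close together and each GFP-KLF2 array lay below them, replicate 2 furthest. The difference was -0.43 (SE 0.10, 95% interval -0.66 to -0.19, adjusted p by limma = 0.0358), or 1.34-fold lower. Of the other Cdc20 probe sets, the second gave -0.54 (adjusted p by limma = 0.012) and the third -0.37 (0.0645).

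The Cdc20 call stood close to the threshold. Without any 1 array, evGFP replicates 1 to 3 and GFP-KLF2 replicates 1 to 3 alike, the adjusted p by limma was 0.0501 to 0.115, with differences of -0.50 to -0.33. Under cyclic loess it was -0.35 (adjusted p by limma = 0.0742).

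Bub1b encodes BUBR1, the checkpoint protein that binds and inhibits CDC20. Its levels were 10.76, 10.87 and 11.01 in evGFP and 10.45, 10.01 and 10.54 in GFP-KLF2 arrays, without overlap. Its difference of -0.55 (SE 0.15, 95% interval -0.89 to -0.21) was the lowest of the 36 genes, with an adjusted p by limma of 0.0531, of 0.0256 with the replicate block and of 0.0459 without GFP-KLF2 replicate 3. A second, dimmer probe set gave -0.57 (adjusted p by limma = 0.0495), also short of the threshold, and a much dimmer one, with a mean of 5.70, gave -0.15. The mean of the 3 gave -0.42 (adjusted p by limma = 0.0545).

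Ttk, the kinase MPS1 that starts checkpoint signalling at the kinetochore, had 9.51, 9.58 and 9.70 in evGFP and 9.22, 9.05 and 9.36 in GFP-KLF2 arrays. These groups did not overlap either, and replicate 2 was the lowest GFP-KLF2 array. The difference was -0.38 (SE 0.10), with an adjusted p by limma of 0.0537, of 0.0271 with the replicate block and of 0.0426 without GFP-KLF2 replicate 3. A dimmer probe set gave -0.14 (adjusted p by limma = 0.645), and the mean of both gave -0.26 (0.198).

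Ube2c, the ubiquitin-conjugating enzyme of the anaphase-promoting complex, had 12.94, 12.97 and 13.10 in evGFP and 12.70, 12.48 and 12.84 in GFP-KLF2 arrays. The groups were separate, at -0.33 (SE 0.11, adjusted p by limma = 0.0982), and the block left it just short of the threshold (0.0465). Bub1, the kinase that recruits other checkpoint proteins, had 10.94, 11.14 and 11.42 against 11.07, 10.65 and 11.19. Its groups overlapped, and its difference was -0.20 (95% interval -0.60 to 0.20). A dimmer Bub1 probe set gave -0.65 (adjusted p by limma = 0.0601), and the mean of both passed (-0.43, 0.0394).

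**Figure D3:**
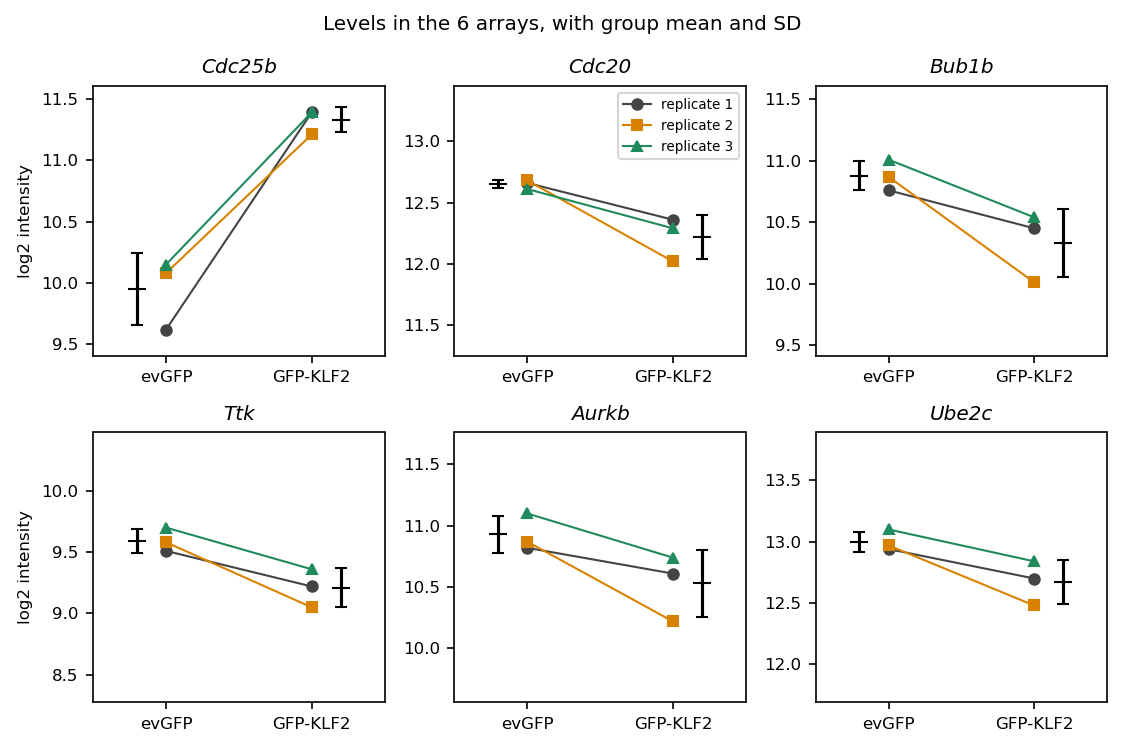
Log2 intensity of 6 G2 and mitosis genes in the 3 evGFP and 3 GFP-KLF2 arrays, with lines joining arrays of the same replicate number and bars giving group mean and SD. Each panel spans the same range of log2 units, and GFP-KLF2 replicate 2 is the lowest array in all panels other than Cdc25b.

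At the centromere and kinetochore, where spindle microtubules attach, 0 of 5 genes passed and the median was -0.09. None of the 5 had p under 0.05 in the uncorrected test. Cenpa, the histone variant that marks centromeres, had 11.79, 11.73 and 12.03 in evGFP and 11.70, 11.09 and 11.70 in GFP-KLF2 arrays. Its groups did not overlap, and the difference of -0.36 (SE 0.18, 95% interval -0.77 to 0.05) was the least precise of the 36. A dimmer Cenpa probe set gave 0.18, and the mean of its 3 probe sets was -0.13. The groups also lay apart for Nuf2, a subunit of the NDC80 complex that holds microtubules, at -0.20 (95% interval -0.43 to 0.02). They overlapped for Ndc80 (-0.09), for the kinetochore motor gene Cenpe (-0.07) and for Cenpf (-0.09), and cyclic loess turned these 3 to 0.01, 0.03 and 0.01.

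The chromosomal passenger complex corrects faulty attachments and later guides cytokinesis, and 0 of its 3 genes passed. Aurkb, its kinase, had 10.82, 10.87 and 11.10 in evGFP and 10.61, 10.22 and 10.74 in GFP-KLF2 arrays, again without overlap. The difference was -0.40 (SE 0.15, adjusted p by limma = 0.133), and with the replicate block it passed (0.0447). A second probe set gave -0.37 (0.0902, and 0.0304 with the block). Birc5, survivin, was among the most narrowly bounded genes at -0.05 (95% interval -0.22 to 0.12), a difference that cyclic loess turned to 0.02, and Cdca8, borealin, differed by -0.19.

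The spindle motors and microtubule proteins comprise 8 genes, of which 0 passed, with a median of -0.15. Differences ran from -0.31 for Hmmr, a microtubule-binding protein of spindle poles, to 0.17 for Dlgap5, which stabilises kinetochore fibres. Hmmr had 10.64, 10.55 and 10.75 in evGFP and 10.52, 10.01 and 10.49 in GFP-KLF2 arrays, and Ckap2, which promotes microtubule growth, differed by -0.24. These were the 2 genes of the role whose groups did not overlap. The motor genes Kif11, which pushes spindle poles apart, and Kif2c, which removes tubulin from microtubule ends, differed by -0.12 and -0.09, the latter turned to 0.01 by cyclic loess. Tpx2 and Tacc3, partners of Aurora A at the spindle, each differed by -0.18, and Nusap1, which bundles spindle microtubules, by 0.01.

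The 3 cytokinesis genes all overlapped between groups. Anln, the actin-binding scaffold of the contractile ring, had 9.55, 9.81 and 9.95 in evGFP and 9.96, 9.83 and 10.26 in GFP-KLF2 arrays, a difference of 0.25 (95% interval -0.08 to 0.59). It was higher in GFP-KLF2 at each replicate number, as were Dlgap5 and Cdc25b and no other of the 36. Kif20a and Kif23, motors of the central spindle, differed by -0.15 and -0.01, and Kif23 turned to 0.09 under cyclic loess.

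Of the chromosome structure genes 0 of 3 passed. Top2a, the topoisomerase that disentangles sister chromatids, had 13.04, 13.09 and 13.18 in evGFP and 13.11, 12.98 and 13.14 in GFP-KLF2 arrays. These overlapped, and the difference of -0.03 (95% interval -0.21 to 0.16, 0.05 under cyclic loess) left no room for a change of 1.5-fold. Mki67, the Ki-67 protein widely used to mark cycling cells, had 12.80, 12.80 and 12.97 against 12.68, 12.56 and 12.76, which did not overlap. Its difference was -0.18 (SE 0.09, 95% interval -0.39 to 0.02, adjusted p by limma = 0.261). Ncapd2, a condensin subunit that compacts chromosomes, differed by -0.24 (95% interval -0.48 to 0.01), also without overlap.

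Much of the shared shift lay in 2 arrays. GFP-KLF2 replicate 2 was the lowest of the 6 arrays for 32 of the 36 genes, with a median deviation of -0.28 from each gene's mean over all arrays. The evGFP replicate 3 array was the highest for 25 genes, with a median deviation of 0.19. The other 4 arrays lay at 0.01 and 0.04 in evGFP and at 0.00 and 0.02 in GFP-KLF2. Without GFP-KLF2 replicate 2 the median difference between groups was -0.06, and without evGFP replicate 3 it was -0.11, as against -0.18 with all arrays.

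The same was seen by replicate number. The median difference was -0.03 at number 1, -0.30 at number 2 and -0.18 at number 3, and 19, 33 and 31 of the 36 genes were lower in GFP-KLF2. Lower at all 3 numbers were 19 genes (52.8%), against 30.2% of all genes and 48.3% of genes with a mean of at least 8. At number 1 the group medians therefore barely differed. Genes with a mean of at least 8 deviated in GFP-KLF2 replicate 2 by a median of -0.04 and in evGFP replicate 3 by 0.06. The G2 and mitosis genes of these arrays thus stood further out than expressed genes in general. This was not particular to them, since the S phase genes described below deviated by -0.20 and 0.17 in the same arrays. In evGFP replicate 1 the S phase genes deviated by 0.16.

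**Figure D4:**
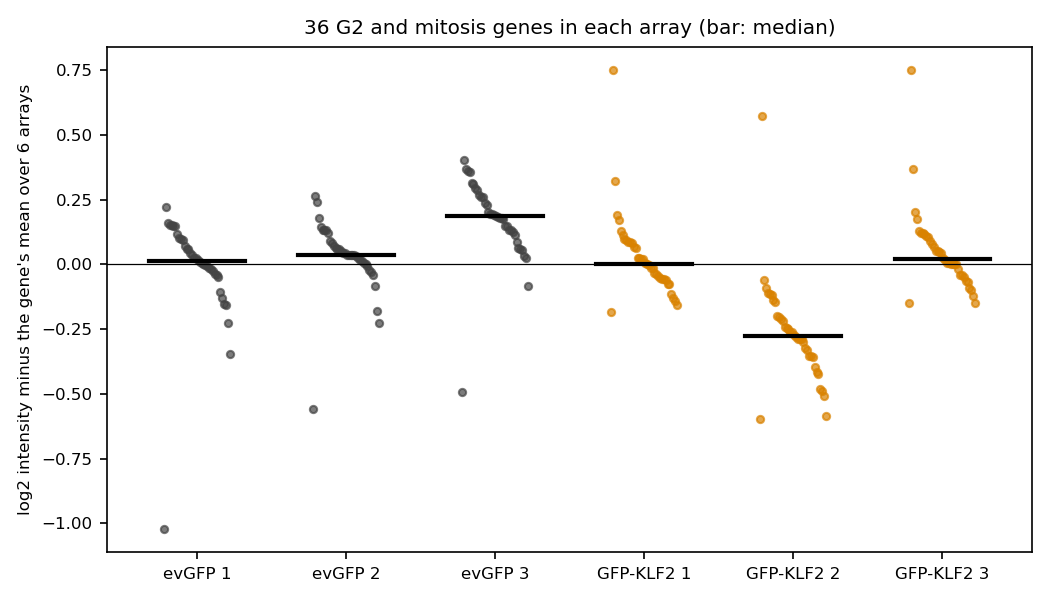
Deviation of each of 36 G2 and mitosis genes (points) from its own mean over the 6 arrays, in log2 units, for each array, with the median as a bar. The bars lie at -0.28 in GFP-KLF2 replicate 2, at 0.19 in evGFP replicate 3 and between 0.00 and 0.04 in the other arrays.

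Other genes of mitosis, 77 in number and from a list of kinetochore, spindle, condensin and cell cycle kinase genes, had the same median of -0.18. Of these 8 fell (10.4%), against 8.35% of all genes and 16.3% of genes with a mean of at least 8, and 0 rose. At an uncorrected p under 0.05, 31 of the 77 were lower (40.3%, against 17.7% and 32.1%) and 2 higher. With the replicate block 15 fell and 1 rose, namely Racgap1, a centralspindlin subunit of cytokinesis (0.39). The 4 largest falls were those of Psrc1 (-0.84, adjusted p by limma = 0.00882), Pimreg (-0.83, 0.0365), Gtse1 (-0.70, 0.0127) and Cdc25a (-0.49, 0.0102). Psrc1 encodes a spindle protein and Gtse1 a microtubule-binding protein that also restrains p53, and Cdc25a encodes the CDC25 phosphatase of G1 and S phase. Cdc25a and Cdc25b thus passed in opposite directions. Leaving out evGFP replicate 1 or 2 or GFP-KLF2 replicate 1 or 2 gave 5, 4, 3 and 2 falls.

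Cdc20 acts within the anaphase-promoting complex. Of 17 other genes of the complex and its regulators, 3 fell (17.6%) and 0 rose by limma. Falls made up 8.35% of all genes and 16.3% of genes with a mean of at least 8. At an uncorrected p under 0.05, 6 of the 17 were lower (35.3%, against 17.7% and 32.1%) and 2 higher, while 1 rose with the block (Anapc11, 0.32). Those that fell were Cdc26 (-0.52, adjusted p by limma = 0.00718), Anapc1 (-0.48, 0.0197) and Anapc15 (-0.38, 0.0198), all subunits of the complex. Cdc23, another subunit, differed by -0.71 (adjusted p by limma = 0.0574, and 0.00693 with the block). Among 16 genes of the DREAM, MuvB and NF-Y factors, which read the promoters above, 3 fell and 1 rose by limma. Falls and rises made up 16.3% and 11.1% of genes with a mean of at least 8, and 8.35% and 6.22% of all genes. At an uncorrected p under 0.05, 5 of the 16 were lower and 2 higher. These shares were 32.1% and 18.6% for genes with a mean of at least 8. Rbl2 (-0.60), Tfdp1 (-0.47) and Tfdp2 (-0.37) fell and Lin37 (0.36) rose. Rbl2 encodes the pocket protein p130 of DREAM, Tfdp1 and Tfdp2 the dimer partners of E2F factors, and Lin37 a MuvB subunit. Nfya, an NF-Y subunit, differed by -0.51 (adjusted p by limma = 0.0628, and 0.0137 with the replicate block). Foxm1 (-0.15, 0.421) and Mybl2, the gene of B-MYB (0.08, 0.687), did not pass.

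The S phase genes differed in how many passed. Of 41 measured, 18 fell (43.9%) and 0 rose by limma, against falls of 8.35% of all genes and 16.3% of genes with a mean of at least 8. At an uncorrected p under 0.05, 24 were lower (58.5%, against 17.7% and 32.1%) and 1 higher. With the replicate block 1 rose (Ccne1, 0.31). Lower at all 3 replicate numbers were 33 (80.5%, against 30.2% and 48.3%). The median difference of the S phase genes was -0.28. At numbers 1, 2 and 3 their medians were -0.26, -0.30 and -0.27, and thus even, where those of the G2 and mitosis genes were -0.03, -0.30 and -0.18. The largest falls were in Ung, a uracil-DNA glycosylase (-1.07, adjusted p by limma = 0.00114), Orc1 of the origin recognition complex (-0.59), Pola2 of DNA polymerase alpha (-0.55) and Gins2 of the replicative helicase (-0.53). Leaving out any 1 of evGFP replicates 1 to 3 or GFP-KLF2 replicates 1 to 3 gave 2 to 9 falls. Fewer arrays per fit lower this count by construction, so it does not show dependence on a given array. The difference between the S phase and the G2 and mitosis lists was not tested.

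Of 7 genes of CDK inhibitors, which hold the kinases inactive, 5 rose (71.4%) and 0 fell, against rises of 6.22% of all genes and 11.1% of genes with a mean of at least 8. The counts were the same at an uncorrected p under 0.05, against 12.0% and 18.6% higher. Cdkn2b rose by 1.35, Cdkn2a by 1.23, Cdkn2d by 1.08, Cdkn1b by 0.69 and Cdkn1a by 0.65 on the log2 scale, while Cdkn1c differed by 0.03 and Cdkn2c by -0.02. With the replicate block Cdkn1b missed the threshold (adjusted p by limma = 0.0502). Cdkn1a was high in GFP-KLF2 replicate 2 (13.16, against 12.78 and 12.82 in replicates 1 and 3), the array in which the G2 and mitosis genes were lowest. In evGFP replicate 2 Cdkn1a was also the highest of its group (12.55, against 12.20 and 12.06). Of the other inhibitors that rose, Cdkn2a (8.85) and Cdkn2b (8.25) were also highest of the GFP-KLF2 arrays in replicate 2. There Cdkn1b (9.39) lay between the other GFP-KLF2 arrays, and Cdkn2d (11.60) was the lowest of them. A link between these levels was not tested.

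**Figure D5:**
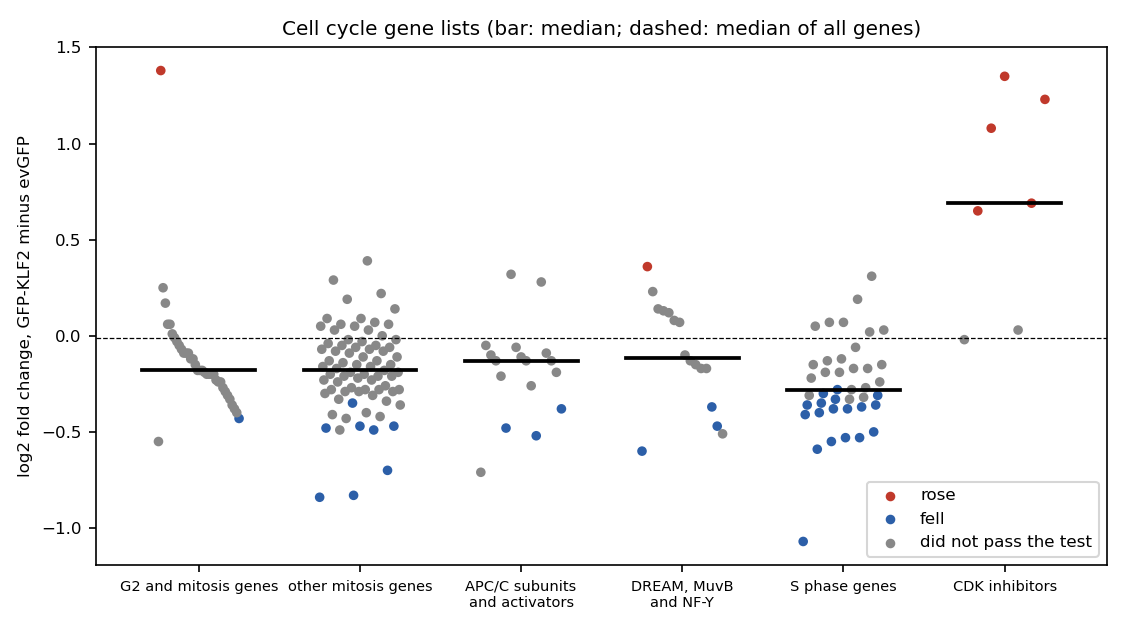
Difference in log2 intensity, GFP-KLF2 minus evGFP, of each gene in 6 lists of the cell cycle (points), with the list median (bar) and the median of all genes (dashed line, -0.01). The G2 and mitosis genes, other mitosis genes and S phase genes have medians of -0.18, -0.18 and -0.28. Of the CDK inhibitors 5 of 7 rose, against 6.22% of all genes.

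Markers of CD8 T cells were at 8.14 to 13.60 for the 10 of 12 measured, as the label states, and Cd8b1 (0.45) and Lat (0.48) of them rose, with 1 lower and 3 higher at an uncorrected p under 0.05. Cd5, a receptor that dampens T cell receptor signals, had the largest difference of these markers, -1.12 without overlap (adjusted p by limma = 0.0493, and 0.00916 with the replicate block). Other cells that the sort could hold were checked in the same way. The median of an array was 5.64 to 5.67. Of 12 myeloid markers 0 passed (1 was higher at an uncorrected p under 0.05) and 9 had means under 6, and of 9 B cell markers 0 passed (3 were higher) and 7 were under 6, with Ighm bright in both groups (mean 12.34). Of 8 erythroid markers 6 were under 6 and Tfrc, the transferrin receptor of dividing cells in general, fell by 0.37, while of 7 NK cell markers Tyrobp rose by 1.48. Of 5 CD4 T cell markers Zbtb7b rose by 0.45, and Il4 differed by -0.82 (adjusted p by limma = 0.171, and 0.0091 with the block). At an uncorrected p under 0.05, 1 erythroid marker was lower, 2 NK cell markers were higher, and 1 CD4 T cell marker was lower and 1 higher. Summed over each list, the log2 intensity was 8.84 to 8.99 in evGFP and above that, up to 9.12, in GFP-KLF2 for myeloid markers, and 12.00 to 13.29 and 11.68 to 12.62 for B cell markers. It was 13.30 to 13.49 and 12.96 to 13.13 for erythroid markers, also without overlap. For NK cell markers it was 12.19 to 13.01 and 12.59 to 13.47, and for CD4 T cell markers 8.40 to 8.71 and 8.64 to 8.84. Such sums are set by the brightest genes of a list. The erythroid sum lay close to Tfrc alone (13.28 to 13.46 and 12.92 to 13.09), and the B cell sum close to Ighm alone (11.88 to 13.24 and 11.48 to 12.51). The part of other cells in these results was not tested.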

How the data were processed

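RNA of sorted GFPpos and GFP-KLF2pos CTL was measured on 6 arrays, and the labels gave each array's group and replicate number. RMA, which corrects background, equalises array distributions and condenses the probes of a set into 1 value, was run by the authors, who deposited each intensity on a linear scale. Intensities ran from 5.74 to 33637.8. Tool versions and scan dates are not given in the sources used here. All value columns were mapped to samples by their names. The number of arrays limits the precision.

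From these values log2 was taken and limma 3.58.1 (R 4.3.3, data.table package 1.17.8) was fitted as 1 constant per group to 45037 probe sets, after removal of 64 control probe sets, with moderated variances, 2-sided tests and Benjamini-Hochberg adjustment over all of them. P-values measure the spread between these cultures. The methods print the threshold as 0.046% beside 2 sigma, so an adjusted p under 0.046 was used and 0.00046 became an alternative. Of the probe sets, 34945 were annotated to 1 gene, 932 to several and 9160 to none in the platform annotation, and 34741 of the first had a RefSeq gene. Groups were compared as GFP-KLF2 minus evGFP. The reported fit, with its standard errors and intervals, held no term for replicate number. Shared replicate numbers were taken as pairs only in the replicate block, an alternative fit, and in the differences by replicate number. The reason was that deviations of same-numbered arrays from their group means gave Pearson's r of 0.33, 0.44 and 0.47. Arrays of unlike number and group gave -0.38 to 0.06.

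The genes, the other lists and the tests were chosen with earlier results of these data known. Named were all members, in each other cell cycle list the 4 passing genes that changed most (or fewer), all CDK inhibitors, markers that passed, and Klf2. Racgap1, Anapc11, Cdc23, Nfya, Foxm1, Mybl2, Ccne1, Cd5, Il4 and Ighm are exceptions to this rule, chosen with their values in view. Motifs were searched on both strands. Alternatives were other thresholds, a filter on dim probe sets, other probe set rules, other scalings, array weights, a robust prior with a trend on intensity, the replicate block and leaving out each array. Summaries and plots were made with pandas 2.3.3, numpy 2.4.6 and matplotlib 3.10.9.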

Additional observations from a re-analysis of the deposited data

How the results depend on the processing

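Cdc25b rose under each alternative other than an adjusted p under 0.00046, which left 0 falls and 0 rises among the G2 and mitosis genes. The single fall became 3 with array weights, 6 with an intensity trend and robust prior, 4 with probe sets of a mean of at least 6, 2 with the mean of a gene's probe sets, 4 with the replicate block, 0 with cyclic loess or a 2-fold minimum, and 0 to 2 without 1 array. The replicate block changed the calls of Bub1b, Ttk and Aurkb and no other of the 36. The 8 falls of other mitosis genes became 5 with cyclic loess, 15 with a mean of at least 6, 15 with the replicate block, 0 at 0.00046, 0 with a 2-fold minimum and 2 to 8 without 1 array, and their 0 rises became 1 with array weights, 2 with cyclic loess, 1 with the block and 1 with any probe set. The 18 falls of S phase genes became 8 with cyclic loess, 0 at 0.00046, 1 with a 2-fold minimum and 2 to 9 without 1 array, and their 0 rises 1 with cyclic loess, the trend, the mean of probe sets, the block or any probe set. Fewer samples per fit and higher thresholds lower these counts by construction, and for the other alternatives the cause was not tested. The median of the 36 genes was -0.24 to -0.06 without 1 array and -0.20 to -0.09 otherwise. Genes that changed sign had not passed the test. They were Cenpe (0.03), Cenpf (0.01), Ndc80 (0.01), Birc5 (0.02), Kif2c (0.01), Kif23 (0.09) and Top2a (0.05) under cyclic loess, Kif23 with array weights or quantile normalization (0.01 each) and Nusap1 with median centring (-0.01). Without 1 array, Ccnb2 ran from -0.03 to 0.22, Cdca3 from -0.09 to 0.13, Cenpe from -0.13 to 0.04, Cenpf from -0.19 to 0.05, Nusap1 from -0.11 to 0.13, Kif23 from -0.07 to 0.09 and Top2a from -0.06 to 0.02. Without probe sets marked as cross-hybridising, 35 genes remained and 30 kept their probe set.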
